A study of Mus musculus with 12 samples.

Results

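Smooth muscle cells pull by sliding myosin filaments along actin filaments, and the genes described here encode the parts of that machine. They are 9 named genes of the 52636 in the deposited count tables: the smooth muscle actins Acta2 and Actg2, the myosin heavy chains Myh11 and Myh10, the regulatory light chain Myl9, the tropomyosins Tpm1 and Tpm2, and the actin-binding proteins Cnn1 (calponin) and Tagln (transgelin, also called SM22). They were chosen by name, as a set of smooth muscle and cytoskeletal contractile genes, with earlier results of these data known. Each was found once in the tables by its Ensembl identifier.

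Contraction of smooth muscle starts when the myosin regulatory light chain is phosphorylated, and tropomyosin, calponin and caldesmon tune how freely myosin reaches actin. Serum response factor (SRF) switches on many of these genes by binding a short element called the CArG box together with myocardin or the related cofactors MRTF-A and MRTF-B. Acta2 is also made by myofibroblasts and by early heart and mesenchyme cells, whereas Myh11 is the marker most restricted to mature smooth muscle. Myh10, which encodes the heavy chain of non-muscle myosin IIB, and several tropomyosin forms serve the cytoskeleton of most cells.

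The libraries came from E14, a mouse embryonic stem cell (ESC) line, and each of 4 groups held 3 libraries. KD embryoid bodies (EBs, floating aggregates in which stem cells differentiate) carried an shRNA against the circular RNA circKat6b-e2 and were taken at day 6, and WT EBs were taken at the same day. KD ESCs and WT ESCs were the undifferentiated cells, kept on gelatin in medium with serum, LIF, the MEK inhibitor PD0325901 and the GSK3 inhibitor CHIR99021. The labels do not say whether WT cells carried a control shRNA, nor whether the KD cells were 1 clone or a pool, and gene counts from poly(A) RNA do not measure the circular target itself.

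Each library held between 25377626 and 37770596 counts. ESC WT replicate 2 stood apart from the other libraries: its counts differed from those of the other WT ESC libraries by a chi-square of 60.9 and 61.7 per gene, against 4.96 to 9.57 for all other replicate pairs. The pluripotent markers summed to 301 to 332 CPM in KD EBs and 166 to 172 CPM in WT EBs, and to 4237 to 4326 CPM in KD ESCs and 3406 to 3979 CPM in WT ESCs (CPM, counts scaled to a common library total, here normalised over the 12 libraries).

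The promoters of 4 members are shown because SRF acts through CArG boxes near the start of genes of this kind, and because in the EBs Acta2 rose, Cnn1 and Tpm1 fell and Myl9 did not pass the test. Each line gives the 250 bases before the transcript start in RefSeq on GRCm38.p6, read 5′ to 3′ on the gene's strand, and RefSeq's start need not be the outer end of the gene in the deposited table. The windows are chr19:34255374-34255623 on the minus strand for Acta2, chr2:156775214-156775463 on the plus strand for Myl9, chr9:22099003-22099252 on the plus strand for Cnn1, and chr9:67049214-67049463 on the minus strand for Tpm1. Capitals mark matches to the CArG box, here CC, a core of 6 bases and GG, where at least 5 of the 6 core bases are A or T.
Acta2: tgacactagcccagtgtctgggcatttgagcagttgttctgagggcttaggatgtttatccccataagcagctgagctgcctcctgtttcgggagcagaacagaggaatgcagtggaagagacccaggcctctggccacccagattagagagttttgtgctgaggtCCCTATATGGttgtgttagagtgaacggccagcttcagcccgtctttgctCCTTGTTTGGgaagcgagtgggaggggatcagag
Myl9: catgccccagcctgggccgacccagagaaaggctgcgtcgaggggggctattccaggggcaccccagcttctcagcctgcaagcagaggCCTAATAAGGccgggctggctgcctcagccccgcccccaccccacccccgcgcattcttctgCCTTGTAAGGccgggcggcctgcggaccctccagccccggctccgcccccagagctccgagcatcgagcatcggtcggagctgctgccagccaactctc
Cnn1: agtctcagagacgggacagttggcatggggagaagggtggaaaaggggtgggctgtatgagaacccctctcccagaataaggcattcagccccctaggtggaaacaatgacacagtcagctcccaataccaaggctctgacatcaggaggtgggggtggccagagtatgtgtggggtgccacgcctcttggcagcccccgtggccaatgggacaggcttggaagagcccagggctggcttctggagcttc
Tpm1: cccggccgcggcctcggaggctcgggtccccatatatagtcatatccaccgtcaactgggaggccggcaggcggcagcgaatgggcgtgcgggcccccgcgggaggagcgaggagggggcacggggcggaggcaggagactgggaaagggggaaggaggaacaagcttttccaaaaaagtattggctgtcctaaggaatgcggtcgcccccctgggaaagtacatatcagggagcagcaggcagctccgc

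A window of 300 bases, from 250 before to 50 after the start, was available for 6 of the 9 members. The strict CArG box, whose core is A or T at all 6 positions on either strand, was present in 1 of those 6 windows, in Myl9, and in 1.63% of 32851 RefSeq windows of the same length. The match in Myl9, CCTAATAAGG, lay from 161 to 152 bases before the start. The looser form, with 1 core base allowed to be G or C, was chosen after the data were seen, because the known Acta2 elements each carry such a base. It was present in 2 of the 6 windows, Acta2 and Myl9, and in 9.98% of all windows, which includes every strict match. The Acta2 match was fixed by that choice, and Myl9 already held a strict match, so these 2 shares cannot be weighed against each other. The Acta2 window held CCCTATATGG from 84 to 75 bases and CCTTGTTTGG from 34 to 25 bases before the start, and a second Myl9 match, CCTTGTAAGG, lay from 99 to 90 bases before it. No match to either form was found in the windows of Cnn1, Tpm1, Tpm2 and Myh10, which says only that these letters are not in those windows. Of these genes Myh10 rose in KD EBs, and Cnn1, Tpm1 and Tpm2 fell. Whether the matches play a part in the changes in EBs was not tested.

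In day 6 EBs the 9 genes split. Acta2, Actg2 and Myh10 rose in KD EBs, Cnn1, Myh11, Tpm1 and Tpm2 fell, and Myl9 and Tagln did not pass the test. With edgeR's quasi-likelihood test at an adjusted p under 0.05, 7 of 9 members were called, 3 higher and 4 lower in KD EBs, in a comparison in which 55.7% of the 17355 tested genes were called, 28.0% higher and 27.7% lower. The median log2 fold change of the 9 was -0.34, beside 0 for all tested genes. In 8 of the 9 genes, all but Myl9, the KD and WT EB libraries did not overlap in CPM, as was so for 61.2% of the tested genes. Because these are bulk samples, fewer cells of a type and less RNA per cell cannot be told apart in any of these values.

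Acta2 (ENSMUSG00000035783, chr19:34241090-34255336, minus strand, GRCm38), the smooth muscle alpha-actin whose promoter holds the loose CArG matches CCCTATATGG and CCTTGTTTGG, stood at 519, 527 and 534 CPM in the 3 KD EB libraries, against 140.3, 142 and 141 CPM in the 3 WT EB libraries, normalised within the stage. Every KD EB library was far above every WT EB library, and the libraries of a group lay close together. The fold was 3.74, a log2 fold change of 1.90 (SE 0.03, edgeR adjusted p = 4.88e-29), from 16733, 16034 and 17561 raw counts in KD EBs and 4508, 4394 and 4892 in WT EBs.

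Actg2 (ENSMUSG00000059430, chr6:83512905-83536265, minus strand), the gamma-actin of visceral smooth muscle such as the gut wall, was scarce throughout. It had 58, 20 and 31 counts in the KD EB libraries and 5, 6 and 2 counts in the WT EB libraries, or 1.80, 0.657 and 0.943 CPM against 0.156, 0.194 and 0.0575 CPM. The KD EB libraries were all above the WT EB libraries, and the first KD library was well above the other two. Its log2 fold change was 3.05 with a wide error (SE 0.60, edgeR adjusted p = 6.58e-05).

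Of the myosin chains, Myh10 (ENSMUSG00000020900, chr11:68691559-68816632, plus strand) reached 916, 897 and 888 CPM in KD EBs, against 565, 567 and 587 CPM in WT EBs. Its groups were well separated, and it rose by a log2 fold change of 0.65 (SE 0.03, edgeR adjusted p = 1.19e-18). Myh11 (ENSMUSG00000018830, chr16:14194527-14291408, minus strand), the smooth muscle heavy chain, moved the other way at a far lower level. It had 17, 30 and 23 counts in KD EBs and 59, 68 and 64 counts in WT EBs, or 0.528, 0.985 and 0.700 CPM against 1.84, 2.20 and 1.84 CPM. No KD library came up to a WT library, and the log2 fold change was -1.41 (SE 0.36, edgeR adjusted p = 0.00117). Myl9 (ENSMUSG00000067818, chr2:156775420-156781658, plus strand), the light chain whose phosphorylation starts contraction, stood at 31.7, 33.9 and 38.4 CPM in KD EBs and at 31.8, 31.5 and 32.0 CPM in WT EBs. The groups overlapped, and the log2 fold change of 0.13 did not pass the test (SE 0.08, edgeR adjusted p = 0.165). Without EB KD replicate 1 it was 0.19 (edgeR adjusted p = 0.0494), and without EB KD replicate 3 it was 0.05 (edgeR adjusted p = 0.654).

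Both tropomyosins of the set fell. Tpm1 (ENSMUSG00000032366, chr9:67022590-67049406, minus strand), a gene whose splice forms serve heart, skeletal and smooth muscle as well as the general cytoskeleton, stood at 1015, 1012 and 993 CPM in KD EBs and at 1399, 1428 and 1414 CPM in WT EBs. The lowest WT library lay far above the highest KD library, and the log2 fold change was -0.49 (SE 0.03, edgeR adjusted p = 1.25e-16). Tpm2 (ENSMUSG00000028464, chr4:43514711-43523765, minus strand), the beta-tropomyosin of skeletal and smooth muscle, had 77.1, 78.1 and 76.7 CPM in KD EBs and 97.8, 94.5 and 102 CPM in WT EBs. Here too the groups did not overlap, with a log2 fold change of -0.34 (SE 0.05, edgeR adjusted p = 1.19e-07), a call that was lost when all 12 libraries shared 1 fit (edgeR adjusted p = 0.0625).

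Among the actin-binding proteins, Cnn1 (ENSMUSG00000001349, chr9:22099216-22109630, plus strand), the calponin of differentiated smooth muscle, had 3.72, 5.42 and 5.57 CPM in KD EBs and 17.1, 15.2 and 14.6 CPM in WT EBs. The WT libraries were all well above the KD libraries, and Cnn1 had the lowest log2 fold change of the set, -1.67 (SE 0.14, edgeR adjusted p = 2.09e-11). Tagln (ENSMUSG00000032085, chr9:45929619-45936058, minus strand), an actin-bundling relative of calponin, had only 21, 24 and 23 counts in KD EBs and 29, 35 and 29 counts in WT EBs. Its KD libraries lay just below its WT libraries, and the log2 fold change of -0.42 did not pass the test (SE 0.43, edgeR adjusted p = 0.434).

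The Tagln values carry a counting limit that the other 8 members do not share. In the deposited gene models 1349 of the 1988 exonic bases of Tagln also belong to other genes, 1241 of them to Gm48529 and 108 to Pcsk7, and a read that touches 2 genes can be left out as ambiguous. Per kilobase of the 639 bases that only Tagln holds, the mean was 35.5 counts in KD EBs and 48.5 counts in WT EBs, against 9419 and 2582 counts per kilobase of Acta2. The level of Tagln is therefore given as uncertain.

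**Figure D1:**
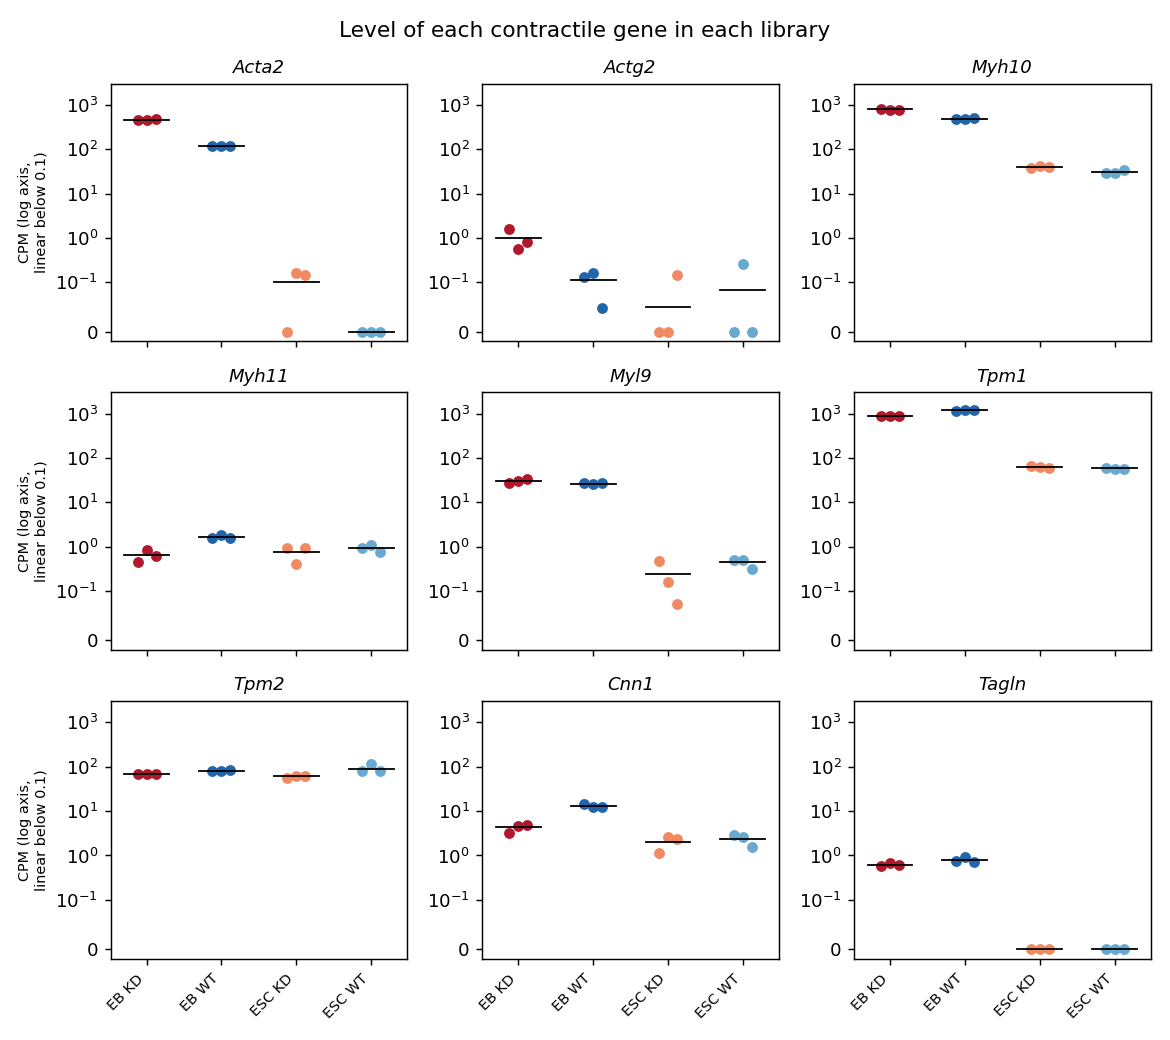
Level of each of the 9 genes in each of the 12 libraries, in CPM normalised over all libraries, on an axis that is logarithmic above 0.1 CPM and linear below it. Points are libraries and bars are group means of 3. Acta2 stands at 459 CPM on average in KD EBs and 118 CPM in WT EBs, and at or near 0 in both groups of ESCs, while Tpm2 lies between 60.6 and 90.7 CPM on average in all 4 groups.

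In undifferentiated ESCs, 6 of the 9 members had enough counts to be tested, and none was called by edgeR's quasi-likelihood test, in a comparison in which 0.603% of 16081 tested genes were called, 0.168% higher and 0.435% lower. Tpm2 and Myh10 had an unadjusted p under 0.05, which makes 2 of 6, beside 21.4% of all tested genes. DESeq2 called 2 of the 6 as well, 1 higher and 1 lower, beside 6.41% of all tested genes. The libraries of the groups did not overlap in Tpm2 and Myh10, and in 30.8% of all tested genes. Tpm2 stood at 48.8, 53.2 and 53.8 CPM in KD ESCs and at 67.3, 97.5 and 67.2 CPM in WT ESCs, normalised within the stage. All WT libraries were above all KD libraries, and the highest was the library that stands apart. The log2 fold change of Tpm2 was -0.57 (SE 0.14, edgeR adjusted p = 0.0793), while leaving out ESC WT replicate 2 gave -0.37 (edgeR adjusted p = 0.000445). Leaving out ESC WT replicate 3 gave a value of -0.67 for Tpm2 (edgeR adjusted p = 0.047).

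Myh10 had 32.2, 36.2 and 33.4 CPM in KD ESCs and 24.9, 24.6 and 28.4 CPM in WT ESCs. Its groups did not overlap either, and the log2 fold change was 0.39 (SE 0.10, edgeR adjusted p = 0.0962), or 0.35 without ESC WT replicate 2 (edgeR adjusted p = 0.0184). The other tested members had overlapping libraries and log2 fold changes of 0.11 for Tpm1 (SE 0.08), -0.18 for Cnn1 (SE 0.40), -0.26 for Myh11 (SE 0.55) and -0.89 for Myl9 (SE 0.83). Few counts stood behind Cnn1, Myh11 and Myl9, for Myl9 11, 4 and 2 counts in KD ESCs and 16, 12 and 8 counts in WT ESCs. The Myl9 value was -1.88 without ESC KD replicate 1 and -0.45 without ESC KD replicate 3, and neither passed the test. Acta2 had 0, 4 and 4 counts in KD ESCs and 0 counts in all WT ESC libraries, Actg2 had 0, 0 and 4 counts against 0, 6 and 0 counts, and Tagln was at 0 in all 6 ESC libraries. These 3 genes were at or near the limit of detection at this depth.

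The test of the difference itself asked whether the KD effect in EBs differed from that in ESCs. It was called for 3 of the 9 members by edgeR's quasi-likelihood test, 1 higher and 2 lower, beside 23.0% of 18975 tested genes (12.8% higher and 10.2% lower). For Tpm1 the KD effect in EBs minus that in ESCs was -0.53 on the log2 scale (SE 0.07, edgeR adjusted p = 0.000107). For Cnn1 it was -1.42 (SE 0.41, edgeR adjusted p = 0.0206) and for Myh10 0.33 (SE 0.08, edgeR adjusted p = 0.0101). The Cnn1 call was lost without EB KD replicate 1, EB WT replicate 1, ESC KD replicate 2 or ESC KD replicate 3 (edgeR adjusted p between 0.0525 and 0.0599), and the Myh10 call without ESC KD replicate 1 (0.0611) or ESC KD replicate 3 (0.0527). The difference was not called for Myl9 (1.14, SE 0.48), Tpm2 (0.30, SE 0.16), Actg2 (3.64, SE 1.80) or Myh11 (-1.08, SE 0.61), and it has no usable value for Acta2 and Tagln, which were at or near 0 in the ESCs. For Myl9 it was 2.07 without ESC KD replicate 1 (edgeR adjusted p = 0.00624) and 0.64 without ESC KD replicate 3 (edgeR adjusted p = 0.347). Without ESC WT replicate 2 it was 0.07 for Tpm2 and -0.85 for Actg2, and without ESC KD replicate 3 it was 7.48 for Actg2.

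**Figure D2:**
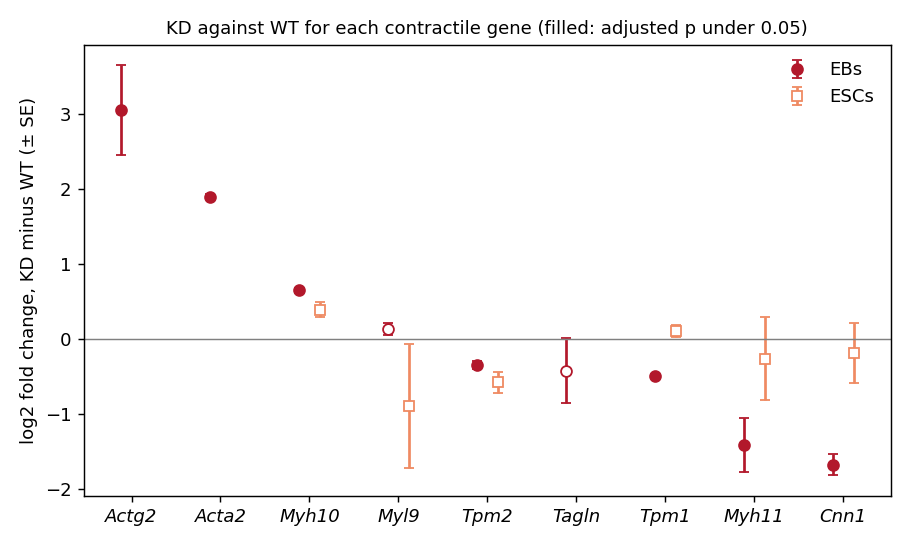
Log2 fold change of KD over WT for each member, in EBs (circles) and in ESCs (squares). Bars are 1 standard error, worked back from edgeR's F statistic and the log2 fold change. Filled symbols have an adjusted p under 0.05. The EB values run between 3.05 for Actg2 and -1.67 for Cnn1, and Acta2, Actg2 and Tagln have no ESC value because they were not tested there.

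Most of the set was higher in EBs than in ESCs of the same cells. In KD cells 7 members were called higher in EBs than in ESCs and none lower by edgeR's quasi-likelihood test, and in WT cells 6 were called higher and none lower. In both comparisons 79.8% of 18975 tested genes were called, 42.5% of those tested higher and 37.3% lower. The 2 members not called in KD cells were Tpm2 and Myh11, and in WT cells Actg2 was not called either.

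Acta2 showed the widest contrast. Over the 3 libraries of a group it had 50328 counts in KD EBs against 8 counts in KD ESCs, which is 4291-fold in CPM, and 13794 counts in WT EBs against 0 counts in WT ESCs, which is at least 3172-fold with 3 counts over the group taken as the floor. Tagln was at least 15.5-fold higher in KD EBs than in KD ESCs and at least 21.4-fold higher in WT EBs than in WT ESCs by the same floor. Each mate of a pair adds to a count, so 3 counts can stand for fewer than 3 fragments, and the bounds for Acta2 and Tagln may be too high. Myl9 rose in EBs by a log2 fold change of 7.02 in KD cells (SE 0.28, edgeR adjusted p = 1.91e-12) and of 5.88 in WT cells (SE 0.25, edgeR adjusted p = 3.98e-12), and in KD ESCs and WT ESCs it averaged 0.241 ± 0.219 and 0.443 ± 0.108 CPM (SD, n = 3 each).

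Myh10 rose in EBs by 4.31 on the log2 scale in KD cells (SE 0.07) and by 3.98 in WT cells (SE 0.07). Tpm1 rose by 3.82 in KD cells (SE 0.06) and by 4.35 in WT cells (SE 0.06). Cnn1 rose by 1.05 in KD cells (SE 0.30, edgeR adjusted p = 0.00411) and by 2.48 in WT cells (SE 0.29, edgeR adjusted p = 9.45e-07). These pairs of values belong to the 3 genes in which the test of the difference passed.

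Tpm2 was already present in ESCs and hardly differed between the stages. It averaged 67.4 ± 0.680 CPM in KD EBs and 60.6 ± 3.19 CPM in KD ESCs, and 82.0 ± 3.23 CPM in WT EBs and 90.7 ± 20.6 CPM in WT ESCs, normalised over the 12 libraries (SD, n = 3 each). Its log2 fold change of EBs over ESCs was 0.15 in KD cells (SE 0.11, edgeR adjusted p = 0.223) and -0.14 in WT cells (SE 0.11, edgeR adjusted p = 0.246), and the WT value turned to 0.41 when only library size was used for scaling. Without ESC WT replicate 3 the WT value was -0.27 (edgeR adjusted p = 0.0331), and without ESC WT replicate 2 it was 0.03. The KD value of Tpm2 was 0.05 without ESC KD replicate 1. Over all 11 alternatives it ran between 0.05 and 0.52, and 2 of them called it higher in EBs. Myh11 stayed under 2 CPM in every library on that scale, with EB over ESC log2 fold changes of -0.25 in KD cells (SE 0.44), which was -0.61 without ESC KD replicate 2, -0.10 without ESC KD replicate 3 and 0.12 with library size alone, and 0.83 in WT cells (SE 0.42, edgeR adjusted p = 0.0814). The WT value of Myh11 ran between 0.41 and 1.37 over 11 alternatives, and 1 of them called it higher in EBs. Actg2 had a log2 fold change of 4.14 in KD cells (SE 1.2, edgeR adjusted p = 0.00467) and 0.50 in WT cells (SE 1.23, edgeR adjusted p = 0.718), from 109 counts in KD EBs and 4 in KD ESCs, and from 13 counts in WT EBs and 6 in WT ESCs. All 4 of those KD ESC counts were in replicate 3, without which the KD value was 7.95 (edgeR adjusted p = 0.00329). All 6 of the WT ESC counts were in replicate 2, without which the WT value was 4.94 (edgeR adjusted p = 0.0387).

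To compare the genes with one another, counts were divided by exonic length and scaled to a common total (TPM). In KD EBs the order was Acta2 at 988 ± 7.19 TPM, Tpm1 at 519 ± 9.82, Myh10 at 288 ± 7.11, Myl9 at 99.6 ± 9.07, Tpm2 at 88.8 ± 1.05, Cnn1 at 5.98 ± 1.20, Actg2 at 2.44 ± 1.30, Tagln at 1.20 ± 0.109 and Myh11 at 0.371 ± 0.114 TPM (SD, n = 3). In WT EBs it was Tpm1 at 687 ± 3.36 TPM, Acta2 at 249.7 ± 1.89, Myh10 at 173 ± 3.07, Tpm2 at 106 ± 3.98, Myl9 at 86.1 ± 1.23, Cnn1 at 18.1 ± 1.71, Tagln at 1.52 ± 0.240, Myh11 at 0.931 ± 0.0931 and Actg2 at 0.275 ± 0.142 TPM (SD, n = 3). Neighbours in both orders did not overlap in their libraries. The place of Tagln is uncertain, because its TPM divides by exonic bases that it shares with other genes. Per kilobase of unshared exon, Tagln had 35.5 counts in KD EBs and Actg2 had 23.3, the reverse of their order by TPM. Acta2 headed the order in KD EBs and Tpm1 in WT EBs. Acta2 made up 49.6 ± 0.367% of the summed TPM of the 9 genes in KD EBs and 18.9 ± 0.120% in WT EBs (SD, n = 3 each). The order and these shares depend on dividing by exonic length, 1781 bases for Acta2 and 6485 for Tpm1. Splice forms were not told apart. By raw counts, Tpm1 and Myh10 stood above Acta2 in KD EBs, at means of 32053 and 28665 against 16776. The sum of the 9 was 1993 ± 7.77 TPM in KD EBs and 1323 ± 6.46 TPM in WT EBs.

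In ESCs the order was led by Tpm2, at 39.8 ± 2.63 TPM in KD ESCs and 49.9 ± 3.67 TPM in WT ESCs. Tpm1 followed at 18.4 ± 0.671 TPM in KD ESCs and 14.7 ± 2.29 TPM in WT ESCs, then Myh10 at 7.23 ± 0.422 TPM and 4.78 ± 0.919 TPM, and Cnn1 at 1.43 ± 0.552 TPM and 1.38 ± 0.425 TPM (SD, n = 3 each). The remaining members were under 1 TPM on average, and from Myl9 down in KD ESCs and from Myh11 down in WT ESCs neighbours overlapped. The summed level was 67.7 ± 2.67 TPM in KD ESCs and 71.7 ± 0.848 TPM in WT ESCs.

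Each member was then set against its own protein family, a measure that does not depend on the scaling between libraries. Among the 6 actin genes, Acta2 held 18.0 ± 0.162% of the TPM in KD EBs and 4.79 ± 0.0445% in WT EBs, while the cytoplasmic beta-actin Actb held 39.6 ± 0.382% and 47.9 ± 0.641% and the cytoplasmic gamma-actin Actg1 41.6 ± 0.265% and 45.6 ± 0.670% (SD, n = 3 each). The summed TPM of the actins was 5506 ± 46.0 in KD EBs and 5211 ± 44.8 in WT EBs. The 3 KD EB libraries lay outside the 3 WT EB libraries for each of these shares, which with 3 against 3 gives the smallest two-sided p that an exact permutation test allows, 0.1.

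Within the tropomyosins, Tpm1 held 31.0 ± 0.660% in KD EBs and 44.6 ± 0.535% in WT EBs, and Tpm2 held 5.30 ± 0.106% and 6.89 ± 0.208%. The non-muscle form Tpm4 made up more of the family in KD EBs, at 48.2 ± 0.827% in KD EBs and 34.3 ± 0.108% in WT EBs (SD, n = 3 each). With counts not divided by length, Tpm4 held 25.4% in KD EBs and 16.0% in WT EBs, and Tpm1 48.2% and 61.4%. Which of Tpm1 and Tpm4 was larger in KD EBs thus depended on that choice, while the direction from WT to KD did not. Tpm4 was called higher in KD EBs, with a log2 fold change of 0.52 (SE 0.03, edgeR adjusted p = 2.27e-15). Tpm3, a cytoskeletal and slow muscle form, held 15.5 ± 0.160% in KD EBs and 14.2 ± 0.232% in WT EBs. In ESCs, Tpm2 held 15.3 ± 0.800% in KD cells and 19.8 ± 2.37% in WT cells.

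Within the smooth and non-muscle myosin heavy chains, Myh10 held 67.6 ± 0.235% in KD EBs and 49.6 ± 0.789% in WT EBs, and Myh11 held 0.0875 ± 0.0278% and 0.268 ± 0.0319% (SD, n = 3 each). The other non-muscle chains made up less of the family in KD EBs. Myh9, the heavy chain of myosin IIA, held 30.9 ± 0.159% in KD EBs and 43.8 ± 0.733% in WT EBs, and Myh14, that of myosin IIC, held 1.38 ± 0.121% and 6.31 ± 0.0804%. Myh9 and Myh14 were both called lower in KD EBs, with log2 fold changes of -0.30 (SE 0.03, edgeR adjusted p = 2.34e-10) and -1.99 (SE 0.08, edgeR adjusted p = 2.08e-19).

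Myl9 held 8.43 ± 0.454% of the myosin light chains in KD EBs and 7.21 ± 0.0715% in WT EBs. The essential light chain Myl6, which smooth muscle and non-muscle myosin share, held 38.5 ± 0.298% in KD EBs and 32.4 ± 0.583% in WT EBs, and its relative Myl6b 1.92 ± 0.187% and 2.16 ± 0.159%. Of the regulatory chains found in most cells, Myl12a held 31.7 ± 1.05% in KD EBs and 32.5 ± 0.830% in WT EBs, and Myl12b 19.5 ± 0.555% and 25.8 ± 0.462% (SD, n = 3 each). In the family of transgelins and calponins, Cnn1 held 0.486 ± 0.0908% in KD EBs and 1.52 ± 0.140% in WT EBs, and Tagln 0.0975 ± 0.00890% and 0.128 ± 0.0217% (SD, n = 3 each). Nearly all of that family came from the forms found outside smooth muscle. Cnn2 held 37.1 ± 0.523% in KD EBs and 31.5 ± 0.869% in WT EBs, Cnn3 held 36.1 ± 0.973% and 27.1 ± 0.672%, and Tagln2 held 25.8 ± 0.375% and 39.2 ± 0.0660%. Tagln3, a transgelin of neurons, held 0.414 ± 0.115% in KD EBs and 0.523 ± 0.178% in WT EBs.

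**Figure D3:**
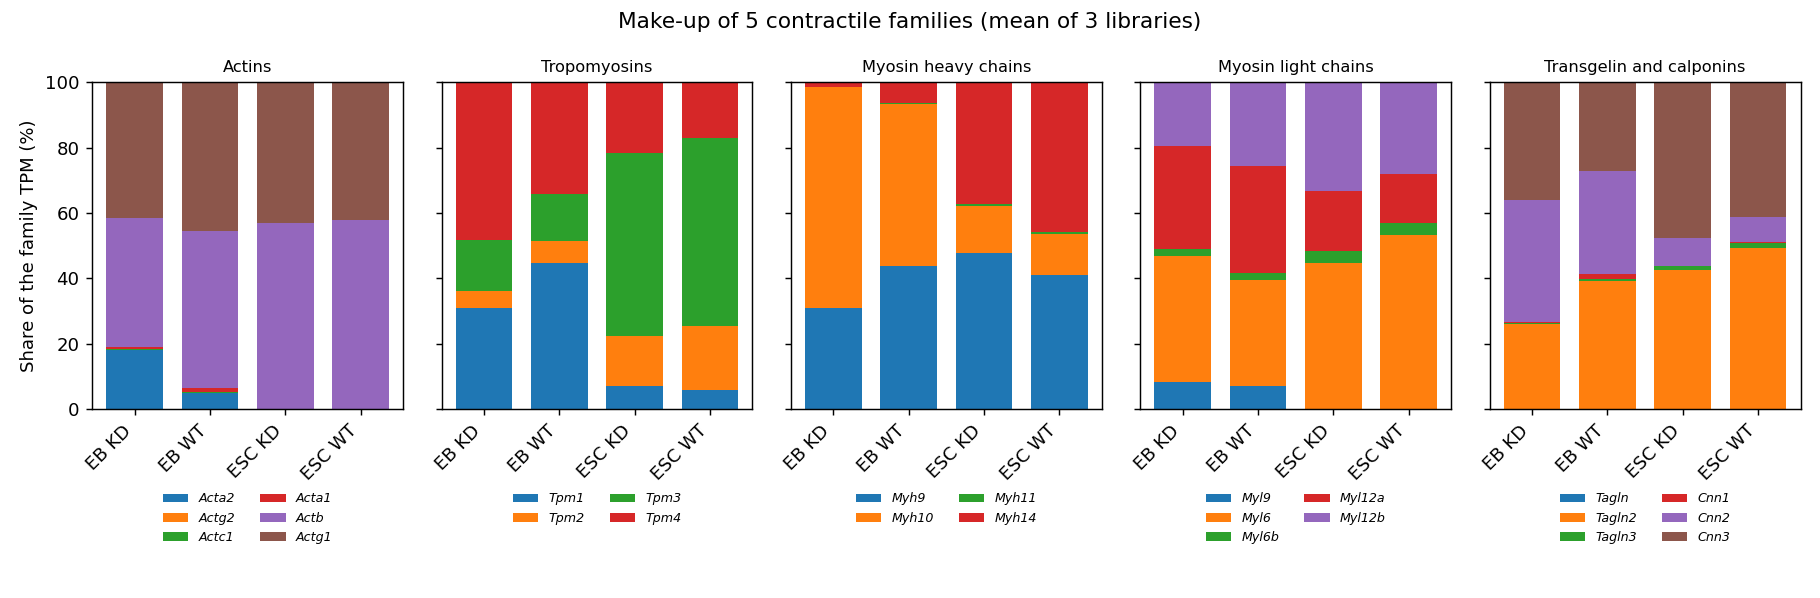
Mean share of each gene in the summed TPM of its family, in percent, for 5 families and the 4 groups of 3 libraries. In KD EBs the Acta2 block is 18.0% of the actins, against 4.79% in WT EBs, and the Myh10 block is 67.6% of the heavy chains, against 49.6% in WT EBs.

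The members were also read beside 20 further contractile and adhesion genes of smooth muscle. Of these, 8 were called higher and 9 lower in KD EBs by edgeR's quasi-likelihood test, with a median log2 fold change of -0.12. Among all tested genes 28.0% were called higher and 27.7% lower. Synpo2, an actin-bundling protein of muscle, had a log2 fold change of 2.35 (SE 0.18) and Tns1, a focal adhesion protein, one of 2.15 (SE 0.08). Des, the muscle intermediate filament desmin, had -1.91 (SE 0.07) and Lmod1, a leiomodin that nucleates actin filaments in smooth muscle, -1.20 (SE 0.23). In ESCs 1 of 18 tested was called, Pdlim7, with a log2 fold change of -0.49 (edgeR adjusted p = 0.0446).

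Of the 13 genes for SRF, its cofactors and other regulators of smooth muscle genes, 12 were tested in EBs. The 12 had a median log2 fold change of 0.44. Of them 7 were called higher and 2 lower, beside 28.0% and 27.7% of all tested genes. The 2 lower ones were SRF itself and its cofactor myocardin. Srf stood at 105, 99.5 and 105 CPM in KD EBs and at 147, 149 and 143 CPM in WT EBs, a log2 fold change of -0.51 (SE 0.04, edgeR adjusted p = 3.77e-12). Myocd had 2.51, 2.82 and 1.61 CPM in KD EBs and 7.38, 6.36 and 5.61 CPM in WT EBs, a log2 fold change of -1.48 (SE 0.21, edgeR adjusted p = 6.89e-07). Both genes had non-overlapping groups, as did 61.2% of tested genes in EBs, with KD below WT, and Myocd was at 0 in all ESC libraries.

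Prrx1, a homeobox factor of mesenchyme, had a log2 fold change of 2.20 (SE 0.08) and Elk3, an ETS factor that partners SRF, of 1.29 (SE 0.10), both called higher in KD EBs. The other SRF partners of the list were looked up after their values were seen. Mrtfb had a log2 fold change of 0.45 (SE 0.07, edgeR adjusted p = 3.45e-06) and Mrtfa one of -0.07 (SE 0.06, edgeR adjusted p = 0.345). Elk1 and Elk4, ETS factors like Elk3, had 0.13 (SE 0.07, edgeR adjusted p = 0.125) and 0.19 (SE 0.10, edgeR adjusted p = 0.0967).

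Among the 12 genes that set light chain phosphorylation, 3 were called higher and 2 lower in KD EBs, beside 28.0% and 27.7% of all tested genes. The median log2 fold change of the 12 was 0.02. The phosphatase inhibitors Ppp1r14b and Ppp1r14a had log2 fold changes of 0.51 (SE 0.04) and 0.26 (SE 0.11), and the small GTPase Rhob and the phosphatase subunit Ppp1r12b -0.45 (SE 0.04) and -0.40 (SE 0.09). Of the 13 genes of the TGF-beta arm, a signal that induces Acta2 in many mesenchymal cells, 6 were called higher and 4 lower, with a median of 0.03. The receptors Tgfbr1 and Tgfbr2 had log2 fold changes of 1.33 (SE 0.05) and 1.17 (SE 0.12), and Ccn1, a matricellular protein gene that TGF-beta and SRF signalling can switch on, -1.23 (SE 0.04).

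Markers of cell types that use these genes were also compared between KD and WT EBs, where 28.0% of all tested genes were called higher and 27.7% lower. Of 10 defining markers of smooth muscle, 3 of which are members, 3 were called higher and 6 lower. Their summed level was 92.5 to 99.4 CPM in KD EBs and 154 to 163 CPM in WT EBs. That sum mostly follows Smtn and Des, the most abundant of the 10 in EBs (mean log2 CPM 5.84 and 5.45), whose log2 fold changes were -0.53 and -1.91. The 3 called higher were Actg2 (3.05), Synpo2 (2.35) and Ppp1r14a (0.26). Kcnmb1, a potassium channel subunit of smooth muscle, was under 1 CPM in all EB libraries. The same sum was 117 to 122 CPM in KD ESCs and 154 to 209.9 CPM in WT ESCs, where Myocd was at 0. The sum did not show how most of the list moved between the stages: by edgeR's quasi-likelihood test 7 of the 10 were called higher and 2 lower in KD EBs than in KD ESCs, and 6 higher and 1 lower in WT EBs than in WT ESCs. In both comparisons 42.5% of all tested genes were called higher and 37.3% lower. The genes of the list called lower were Ppp1r14a in both cells and Smtn, which encodes smoothelin, in KD cells. Ppp1r14a averaged 18.7 ± 3.29 CPM in KD EBs against 51.6 ± 5.00 CPM in KD ESCs, and 15.0 ± 1.41 CPM in WT EBs against 89.2 ± 28.7 CPM in WT ESCs (SD, n = 3 each). Smtn averaged 40.7 ± 0.259 CPM in KD EBs against 52.3 ± 0.483 CPM in KD ESCs (SD, n = 3 each).

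Of 13 tested cardiac markers, none was called higher and 9 were called lower, beside 28.0% and 27.7% of all tested genes. The summed level of the cardiac markers was 62.1 to 65.5 CPM in KD EBs and 157 to 167 CPM in WT EBs. The troponin gene Tnnc1 had a log2 fold change of -3.33 (SE 0.11) and the atrial light chain gene Myl7 of -3.03 (SE 0.21), while among the called genes the troponin genes Tnnt2 and Tnni1 had the smallest changes, -1.83 (SE 0.21) and -1.21 (SE 0.09). Nppa, an early heart hormone gene, was at 0 in KD EBs. Of 5 tested skeletal markers, 1 was called higher and 3 lower, with a summed level of 20.2 to 22.8 CPM in KD EBs and 41.5 to 43.8 CPM in WT EBs, and Myf5 was at 0 in every group. The skeletal light chain gene Mylpf had a log2 fold change of 1.47 (SE 0.24), and Acta1 and the troponin gene Tnnt3 had -1.83 (SE 0.10) and -0.74 (SE 0.12).

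Fibroblast and mesenchyme markers went the other way. Of 12, 10 were called higher and 1 lower in KD EBs, beside 28.0% and 27.7% of all tested genes. The 12 summed to 4176 to 4247 CPM in KD EBs and 1563 to 1607 CPM in WT EBs. The collagen gene Col3a1 had a log2 fold change of 6.19 (SE 0.15), the proteoglycan gene Lum of 5.81 (SE 0.14), the collagen gene Col5a1 of 0.30 (SE 0.04) and Thy1 of -2.07 (SE 0.14). Endothelial markers summed to 228 to 240 CPM in KD EBs and 116 to 122 CPM in WT EBs, with 6 of 7 called higher and 1 lower, and Emcn at 0 in WT EBs. The receptor genes Tie1 and Tek had log2 fold changes of 3.85 (SE 0.30) and 1.86 (SE 0.15), the VEGF receptor gene Kdr of 1.04 (SE 0.06) and the adhesion gene Pecam1 of -1.15 (SE 0.10). Mural cell markers summed to 342 to 367 CPM in KD EBs and 303 to 314 CPM in WT EBs, with 3 of 6 tested called higher and 2 lower, and Kcnj8 and Abcc9 at 0 in WT EBs. Rgs5 and Pdgfrb, genes typical of pericytes, had log2 fold changes of 1.19 (SE 0.07) and 0.87 (SE 0.06), and Mcam and Anpep of -1.13 (SE 0.10) and -0.70 (SE 0.09). Epithelial markers summed to 2225 to 2359 CPM in KD EBs and 3169.7 to 3289 CPM in WT EBs, with all 7 called lower, at log2 fold changes of -0.96 (SE 0.04) for the cadherin gene Cdh1 and -0.77 (SE 0.03) for the keratin gene Krt18, and of -0.32 (SE 0.05) for Cldn7 and -0.15 (SE 0.04) for Krt19 at the other end. Of the pluripotent markers, 6 of 7 were called higher in KD EBs, with log2 fold changes of 2.64 (SE 0.11) for Esrrb, 2.61 (SE 0.11) for Klf2, 0.92 (SE 0.08) for Tfcp2l1 and 0.30 (SE 0.06) for Pou5f1. The part of these cell type markers in the changes of the 9 contractile genes was not tested.

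**Figure D4:**
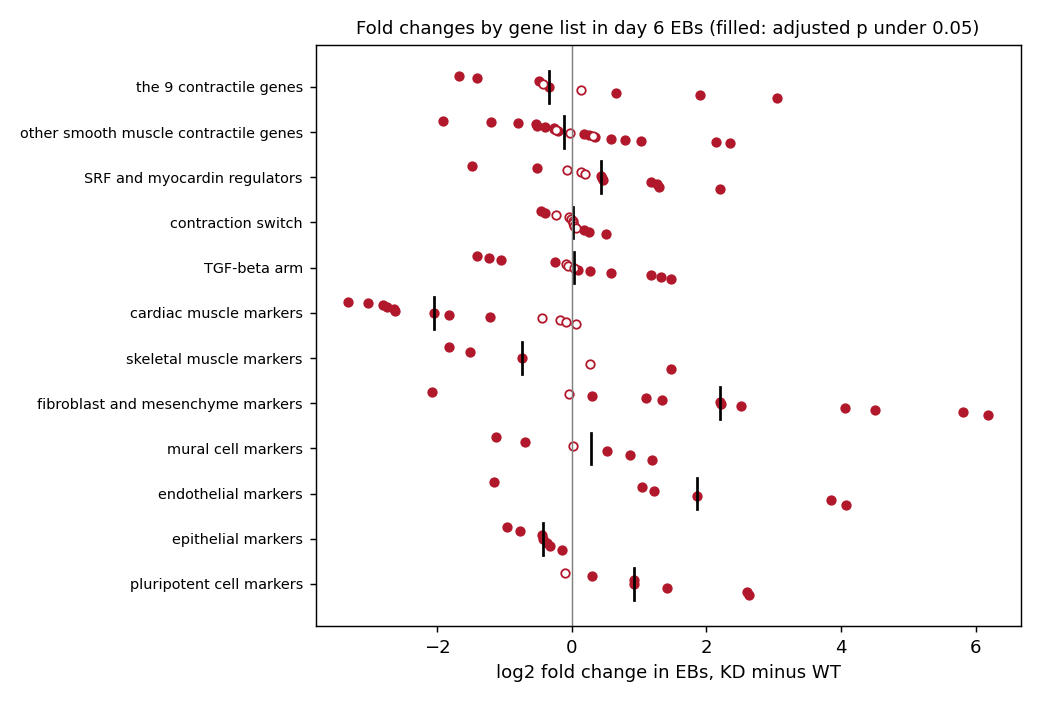
Log2 fold change of KD over WT in day 6 EBs for every tested gene of 12 lists, 1 point a gene, filled where the adjusted p is under 0.05, with a black bar at the list's median. Emcn, which is at 0 in WT EBs, is not drawn. The 9 contractile genes lie on both sides of 0 with a median of -0.34, the cardiac markers have a median of -2.04 and the fibroblast and mesenchyme markers of 2.20.

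Genes whose pattern was nearest to that of Acta2 were sought by the root mean square difference of log2(CPM + 1), centred on each gene's own mean, over the 12 libraries and among 11610 genes. The nearest were Igfbp5 (0.36), Mest (0.36), Peg3 (0.41), Peg10 (0.54) and Msx1 (0.56). Igfbp5, an insulin-like growth factor binding protein, averaged 450.1 ± 6.28 CPM in KD EBs and 86.3 ± 2.1 CPM in WT EBs, and 0.307 ± 0.149 CPM in KD ESCs and 0.335 ± 0.386 CPM in WT ESCs (SD, n = 3 each). Beside it, Acta2 averaged 459 ± 9.04 CPM in KD EBs and 118 ± 0.561 CPM in WT EBs. Among the members the nearest to Acta2 was Myl9, at 1.80, which is farther than any of those 5 genes. The nearest pairs within the set were Tpm2 with Myh11 (0.29) and Myl9 with Tpm1 (0.33). Adding 1 to the CPM shrinks the changes of scarce genes such as Myh11, pooled at 0.639 CPM in KD EBs and 1.63 CPM in WT EBs. The nearness of Myh11 to Tpm2 therefore says little. Their edgeR log2 fold changes of KD over WT in EBs were -1.41 for Myh11 and -0.34 for Tpm2. The measure is dominated by the difference between EBs and ESCs, since the 12 libraries fall into those 2 stages.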

How the data were processed

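RNA was measured by paired-end sequencing of poly(A)-selected libraries, 3 per group in 4 groups. The deposited tables hold raw read counts per gene, made per the file headers with featureCounts 2.0.3 on Ensembl release 90 of GRCm38, and a gene length column that gives exonic bases. The submitters' processing notes name HISAT2 2.1.0, DESeq2 1.18.1 and the build mm10. The header's command has no strand option and no pair counting, so each mate of a pair adds to a count: even values made up 61.7% to 68.7% of counts of 1 to 10, against 48.0% to 51.6% in a higher range of counts. Reads of overlapping genes cannot be told apart by strand. Floors cover counting error only, and PCR duplicates were not marked by molecular identifiers.

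Counts of both tables were joined by gene identifier, and 52403 of 52636 identifiers had a symbol. Groups came from the sample titles. Genes passing edgeR's filterByExpr (minimum count 10, minimum total 15) were tested with edgeR 4.0.16 in R 4.3.3 (TMM scaling, robust quasi-likelihood F-test, Benjamini-Hochberg adjustment over all tested genes, calls at 0.05): KD against WT within each stage on 6 libraries, and EBs against ESCs and the difference of KD effects on all 12. Each SE was worked back from a gene's F statistic and its log2 fold change, and is not a standard error reported by edgeR. CPM are counts scaled to a common total with TMM factors, and TPM divide counts by exonic length. Family shares were compared by a two-sided exact permutation test. CArG boxes were searched on both strands of RefSeq promoter windows.

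Named in the text are all 9 members, the genes of the protein families, and of each further list up to 2 called genes at each end of the EB fold changes with a mean log2 CPM of at least 2; a gene of the TGF-beta arm that this rule names is not reported here by its own values. The members and lists were chosen with earlier results of these data known. The fits were tested on simulated data. The series calls the libraries of a group biological replicates. Deviations of same-numbered KD and WT libraries correlated between -0.03 and 0.03, so replicate numbers were not taken as pairs. Alternatives were DESeq2 1.42.0, no filter, library size only, a replicate block, another set of libraries in the fit, and leaving out 1 library at a time.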

Additional observations from a re-analysis of the deposited data

Results flagged for a closer look

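The KD effect differed between the stages in 3 of the 9 genes, by edgeR's test of the difference itself over all 18975 tested genes. For Cnn1 the KD effect in EBs minus that in ESCs was -1.42 on the log2 scale (SE 0.41, edgeR adjusted p = 0.0206), and its range over all alternatives was -1.73 to -1.22. For Tpm1 it was -0.53 (SE 0.07, edgeR adjusted p = 0.000107), with a range of -0.69 to -0.50. For Myh10 it was 0.33 (SE 0.08, edgeR adjusted p = 0.0101), with a range of 0.17 to 0.36. Of 16 alternatives, 5 lost the Cnn1 call and 3 the Myh10 call, while the Tpm1 call held in all 16. The test of the difference called 23.0% of tested genes. In EBs all 3 KD libraries of each gene lay on 1 side of all 3 WT libraries, as was so for 61.2% of the genes tested there.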

How the results depend on the processing

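The count of members called in EBs was 7, with 6 to 8 under the alternatives, and all 7 called genes kept their direction throughout. In ESCs the count was 0 with edgeR, but 2 with DESeq2, 2 with no filter on low counts, 1 with the replicate block, 3 in the fit of all 12 libraries, and between 0 and 2 when 1 library was left out. For the difference between stages it was 3, and between 1 and 3 with 1 library left out, the 1 being without ESC KD replicate 3. The cause of these shifts was not tested. Several values that had not passed the test changed sign: Cnn1 in ESCs was 0.10 without ESC KD replicate 1 (range -0.42 to 0.10 with 1 library left out), and Myh11 in ESCs 0.05 without ESC KD replicate 2 (-0.46 to 0.05). Tpm2 in WT EBs over ESCs was 0.41 with library size only (edgeR adjusted p = 0.000592), 0.00036 with the replicate block, and -0.27 to 0.03 with 1 library left out. Actg2 in WT EBs over ESCs was -0.17 without ESC WT replicate 1 and -0.08 without ESC WT replicate 3 (-0.17 to 4.94), and its difference between stages -0.85 without ESC WT replicate 2 (-0.85 to 7.48). Myh11 in KD EBs over ESCs was 0.12 with library size only. The replicate block also ended the call of Cnn1 in the difference (edgeR adjusted p = 0.0531) and in KD EBs over ESCs (1.08, edgeR adjusted p = 0.0712). With library size only the difference for Myh10 was 0.17 (edgeR adjusted p = 0.307), and that scaling moved the median of all genes by 0.11 for KD over WT in ESCs, 0.53 for EBs over ESCs in WT cells, 0.37 in KD cells and -0.16 for the difference. Counts not divided by length gave an Acta2 share of the actins 9.52 points higher in KD than in WT EBs, against 13.2 points per length. In EBs that choice also moved the KD minus WT difference of Tpm2 from -1.59 to -0.555 points, of Myl9 from 1.22 to 0.442, of Myh11 from -0.18 to -0.105 and of Actg2 from 0.0389 to 0.0244, and in ESCs that of Tpm2 from -4.55 to -2.69 and of Myl9 from -0.0255 to -0.0104, all with the same sign. Depth limits Acta2, Actg2, Tagln, Myl9, Myh11 and Cnn1 in ESCs and Tagln, Actg2 and Myh11 in EBs. With 3 libraries a group the smallest two-sided permutation p is 0.1.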

Other observations

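In ESCs the only genes called by edgeR among the further lists were Pdlim7 (log2 fold change -0.49, adjusted p = 0.0446), the light chain gene Myl4 (-1.02, adjusted p = 0.0488) and the keratin gene Krt19 (-0.74, adjusted p = 0.0243), each lower in KD ESCs. Acta1, the skeletal alpha-actin, moved against Acta2 in EBs, with 8.88, 7.78 and 8.43 CPM in KD EBs and 27.5, 29.5 and 32.5 CPM in WT EBs. Its change was -1.83 on the log2 scale (SE 0.10) with an edgeR adjusted p of 2.38e-16. Actc1, the cardiac alpha-actin, had 13.2, 13.4 and 13.3 CPM in KD EBs and 12.5, 14.1 and 15.8 CPM in WT EBs, and its groups overlapped. The 3 muscle alpha-actins thus had 3 different outcomes in the same libraries. Myl12b, a regulatory light chain found in most cells, was called lower in KD EBs (-0.50 on the log2 scale, SE 0.04, edgeR adjusted p = 3.84e-11), and Tagln2 likewise (-0.64, SE 0.03, edgeR adjusted p = 4.57e-16), while Cnn3 was called higher (0.39, SE 0.03, edgeR adjusted p = 5.69e-12). Gm48529, which shares exonic bases with Tagln, had 27, 25 and 37 counts in KD EBs and 23, 24 and 30 counts in WT EBs. It had 8, 36 and 1 counts in KD ESCs and 0, 14 and 8 counts in WT ESCs, where Tagln had none in either group.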
